A study of Mus musculus with 12 samples.

Results

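Isolated peaks were the autosomal regions of open chromatin that stood alone. Each had no other peak midpoint within 50 kb on its chromosome and lay more than 1 kb from any end of a protein-coding RefSeq gene. These criteria used positions only, and they took 1247 of the 68689 peaks in the deposited table, 1.82% of all peaks. Of the other autosomal peaks, 15676 lay within 1 kb of a gene end and 50236 were distal but had a neighbour within 50 kb. Accessibility had been measured with Omni-ATAC, in which a transposase inserts sequencing adapters into open DNA, on spleen B cells of the germinal center from C57BL/6 mice aged 8 to 10 weeks. Of the 12 libraries, 3 were HOMO CB and 3 were HOMO CC, both with the genotype Pbrm1-/-, and 3 were WT CB and 3 were WT CC, both Pbrm1+/+. The labels give the letters CB and CC without spelling them out, and the library names in the count table begin with Pbrm1AID, which the labels do not explain. They do not say how the knockout was driven, or whether libraries of a group came from separate mice, so the p-values measure the spread between these libraries.

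Pbrm1 encodes a bromodomain subunit found in PBAF, a form of the SWI/SNF complex that slides or evicts nucleosomes with the energy of ATP. Germinal center B cells alternate between a phase of rapid division and mutation and a phase of selection, and many enhancers of B cell identity genes sit in clusters. A site that stands alone can be a lone enhancer, an insulator site, a start missing from the annotation or a repeat.

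Library totals ran between 6431354 counts (HOMO CC 1) and 45590454 counts (HOMO CB 3), and the median isolated peak held between 16 and 80 counts a library. The gene-end peaks of all 10 germinal center B cell markers were present, at a summed 520 to 583 CPM (counts scaled to a common library total) in HOMO CC, 557 to 574 CPM in HOMO CB, 485 to 499 CPM in WT CC and 523 to 548 CPM in WT CB libraries. Of 8 T cell markers 2 had such a peak, and Cd3e, Cd3g, Cd8a, Bcl11b, Trac and Cd28 had none; the 2 summed to 21.1 to 23.8 CPM in HOMO CB and 26.8 to 31.0 CPM in WT CB, and to 24.2 to 26.4 CPM in HOMO CC and 29.2 to 30.9 CPM in WT CC libraries. Of 6 erythroid markers 2 had a peak and Gata1, Hba-a1, Hbb-bs and Epor had none; the 2 summed to 8.84 to 10.2 CPM in HOMO CB and 11.5 to 16.3 CPM in WT CB, and to 7.82 to 8.72 CPM in HOMO CC and 10.6 to 12 CPM in WT CC libraries. All 4 plasma cell markers had one, with sums of 193 to 201 CPM in HOMO CB and 224 to 237 CPM in WT CB, and of 186 to 188 CPM in HOMO CC and 202 to 214 CPM in WT CC libraries. Of 8 myeloid markers 3 had one, and Csf1r, Lyz2, Itgam, Mpo and S100a8 had none; the 3 summed to 56.1 to 63.0 CPM in HOMO CB and 49.3 to 53.7 CPM in WT CB, and to 47.6 to 55.0 CPM in HOMO CC and 43.9 to 54.5 CPM in WT CC libraries. The T cell, erythroid and plasma cell sums thus lay lower in HOMO in both populations, the germinal center sum higher in both and the myeloid sum higher in CB, each without overlap, and their part in the genotype results was not tested. Both libraries numbered 2 of the WT groups had little signal at the Xist peak, 0.458 CPM in CB and 0.782 CPM in CC, against 4.73 to 17.2 CPM in the others. The peak at the end of Pbrm1 itself averaged 30.7 ± 4.84 CPM in HOMO CB and 31.6 ± 6.78 CPM in the WT CB libraries, and 30.2 ± 5.36 CPM in HOMO CC and 32.1 ± 7.50 CPM in WT CC (SD, n = 3 each); the labels do not say which part of the gene was deleted, so this peak checks no label.

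Sequence was at hand for the 58 isolated peaks (4.65%) that overlapped a RefSeq start window, the stretch 250 bases upstream to 50 bases downstream of an annotated start. Of these starts 37 belonged to protein-coding genes and 21 to other genes. The windows of 7 such peaks are shown because 5 of them carried the genotype calls described below, that of Sorbs2 was the most open of the peaks lower in CC, and that of Cep70 was the most open of the 58; each run is the part of the window inside the peak, 5′ to 3′ on the gene's strand, from RefSeq on GRCm38, with CpG dinucleotides in capitals.
Frmd4a: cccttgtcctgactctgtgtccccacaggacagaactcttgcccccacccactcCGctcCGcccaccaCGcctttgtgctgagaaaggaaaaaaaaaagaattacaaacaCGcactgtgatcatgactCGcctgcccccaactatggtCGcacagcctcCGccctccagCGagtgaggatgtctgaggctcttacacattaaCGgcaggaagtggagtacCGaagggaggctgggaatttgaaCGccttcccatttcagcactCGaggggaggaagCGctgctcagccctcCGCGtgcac
Golga7b: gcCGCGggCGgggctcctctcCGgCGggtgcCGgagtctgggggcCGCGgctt
Zfp451: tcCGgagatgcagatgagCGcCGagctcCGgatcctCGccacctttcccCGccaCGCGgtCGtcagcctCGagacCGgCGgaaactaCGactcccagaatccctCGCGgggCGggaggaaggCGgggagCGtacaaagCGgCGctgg
Smkr-ps: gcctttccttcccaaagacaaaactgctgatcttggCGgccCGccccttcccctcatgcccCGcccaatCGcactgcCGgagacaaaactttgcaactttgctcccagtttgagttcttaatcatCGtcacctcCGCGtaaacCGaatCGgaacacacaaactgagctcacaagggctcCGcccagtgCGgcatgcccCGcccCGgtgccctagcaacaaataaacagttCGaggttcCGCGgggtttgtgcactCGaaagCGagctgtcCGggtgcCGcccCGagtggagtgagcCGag
4732419C18Rik: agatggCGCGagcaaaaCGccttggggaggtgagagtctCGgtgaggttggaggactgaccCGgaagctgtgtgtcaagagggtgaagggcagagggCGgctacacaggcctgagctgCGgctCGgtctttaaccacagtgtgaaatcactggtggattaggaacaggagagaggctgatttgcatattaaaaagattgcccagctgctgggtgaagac
Sorbs2: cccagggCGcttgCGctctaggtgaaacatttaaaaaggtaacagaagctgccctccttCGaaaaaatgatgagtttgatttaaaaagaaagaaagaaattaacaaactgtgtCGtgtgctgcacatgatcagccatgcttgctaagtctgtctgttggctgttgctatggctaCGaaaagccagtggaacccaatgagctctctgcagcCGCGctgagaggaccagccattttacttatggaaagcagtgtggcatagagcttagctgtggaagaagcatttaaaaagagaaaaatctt
Cep70: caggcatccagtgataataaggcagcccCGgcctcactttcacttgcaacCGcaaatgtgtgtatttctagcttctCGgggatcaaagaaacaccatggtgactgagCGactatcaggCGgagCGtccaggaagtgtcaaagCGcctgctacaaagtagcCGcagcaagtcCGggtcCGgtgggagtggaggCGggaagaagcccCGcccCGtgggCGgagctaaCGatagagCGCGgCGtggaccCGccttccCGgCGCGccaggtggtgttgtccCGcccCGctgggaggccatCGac
The Frmd4a window lies at chr2:4559504-4559803 on the plus strand and the Golga7b window at chr19:42255736-42255788 on the plus strand. The Zfp451 window lies at chr1:33814546-33814692 on the minus strand, and that of Smkr-ps, a non-coding gene whose nearest protein-coding gene is Strip2, at chr6:29985079-29985378 on the plus strand. That of 4732419C18Rik, a non-coding gene whose nearest protein-coding gene is Rab4a, lies at chr8:123754179-123754397 on the minus strand. The Sorbs2 window lies at chr8:45627501-45627800 and the Cep70 window at chr9:99243091-99243390, both on the plus strand.

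The stretches differ in CpG content. The Cep70 stretch had 25 CpGs at 62.0% G and C, and the Sorbs2 stretch had 7 at 44.0%. Over the 58 windows, 29 (50%) were CpG-rich, meaning at least 50% G and C and an observed over expected CpG ratio of at least 0.6, against 78.3% of the 9193 windows under gene-end peaks and 33.5% of all 32851 RefSeq start windows. The letters GGGCGG, the core of an Sp and Klf factor box, stood on either strand in 58.6% of the isolated windows, 71.0% of the gene-end windows and 35.7% of all windows. CCAAT, the NF-Y box, stood in 41.4%, 38.9% and 37.4% of the same sets, and CCGGAAG, an Ets site, in 13.8%, 20.7% and 8.86%; these matches are descriptions and mark no bound site. The windows of Gm26567 and Gm26611, beside the Trim43 genes, shared 187 of 281 words of 20 bases, so reads of that pair could have been split between them.

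The isolated peaks were weak and lay in gene-poor DNA. Their median level was 2.08 CPM over the 12 libraries, against 6.18 CPM for the other distal peaks and 22.3 CPM for the gene-end peaks. Only 60 of them (4.81%) reached 10 CPM, against 34.2% of the other distal peaks. The median isolated peak had its nearest neighbour 80.3 kb away, and 472 had none within 100 kb. A median of 6 protein-coding genes lay within 500 kb of an isolated peak, against 12 for the other distal peaks and 17 for the gene-end peaks. Inside gene spans stood 548 isolated peaks (43.9%), and the genes that held them were long, with a median length of 203 kb against 77.8 kb for other distal peaks. The 699 intergenic ones lay a median of 65.6 kb from the nearest gene, and 44 lay over 500 kb away. Chromosome 13 held the highest share of isolated peaks, 2.82% of its peaks, and chromosome 11 the lowest, 1.13%. Replicate libraries spread more at these weak sites: the median biological coefficient of variation was 0.206 for isolated and 0.158 for other distal peaks.

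**Figure D1:**
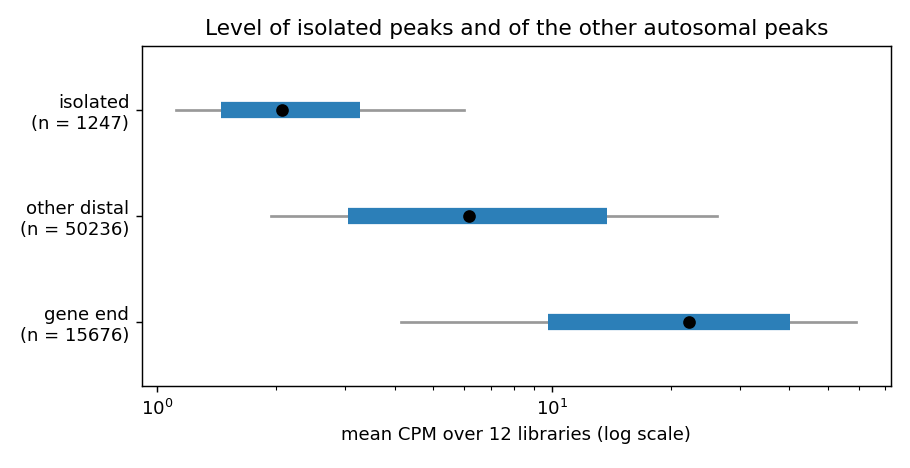
Mean CPM over the 12 libraries on a log axis for isolated, other distal and gene-end peaks; points are medians, thick bars run between the quartiles and thin lines between the 10th and 90th percentiles. The median isolated peak, at 2.08 CPM, lies below the lower quartile of both other classes.

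A few isolated sites were as open as gene-end peaks. Peaks at the starts within Cep70, a centrosome protein gene, Smarcal1, an annealing helicase gene, and Nudt16, a gene of RNA decapping, ranged between 41.0 and 72.1 CPM and were called in no comparison. Others among the 10 highest lay 250 kb from Cxcl12, the chemokine that draws cells bearing Cxcr4, 374 kb from Kctd8, 26.5 kb from Tead4, 39.1 kb from LOC115488002 and 14.4 kb from the vomeronasal receptor gene Vmn2r96, and at the Sorbs2 start. The Cxcl12-side peak missed the threshold for genotype in both cell populations. In libraries 1, 2 and 3, the order used for all values given library by library, it had 67.8, 61.5 and 50.9 CPM in HOMO CB and 50.3, 51.3 and 39.0 CPM in WT CB libraries (log2 fold change 0.36 ± 0.12 SE, edgeR adjusted p = 0.0881), and 46.7, 53.5 and 48.6 CPM in HOMO CC and 40.5, 36.5 and 34.1 CPM in WT CC libraries (0.43 ± 0.12 SE, adjusted p = 0.0545). The genotypes overlapped in CB and did not overlap in CC.

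The 5 most remote sites lay in or far from the gene nearest to them. The farthest had its nearest neighbour 5.77 Mb away, inside Cdh10, a cadherin gene, and held 1.06 to 3.01 CPM across the 12 libraries. The next had their nearest neighbour at 4.50 Mb, 3.91 Mb, 2.77 Mb and 1.96 Mb. Their nearest genes were Pcdh9, a protocadherin gene 649 kb away, Cdh8 at 595 kb, Lrfn5 at 137 kb and Ncam2 at 1003 kb, and no comparison called any of the 5. Of these the Pcdh9-side peak was the most open, with 7.39 to 8.97 CPM in HOMO CC and 10.7 to 11.7 CPM in HOMO CB, and 6.5 to 8.54 CPM in WT CC and 8.82 to 12.6 CPM in WT CB libraries. In both genotypes its CC libraries all lay below its CB libraries, with adjusted p = 0.103 in HOMO and 0.114 in WT.

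By nearest gene, the isolated set leaned toward genes of other tissues. Genes of neuronal adhesion and guidance were nearest to 30 isolated peaks, 2.41% of them, against 0.798% of the other distal peaks. Ion channels and neurotransmitter receptors were nearest to 39 (3.13% against 1.19%), developmental transcription factors to 36 (2.89% against 1.25%) and olfactory, vomeronasal and taste receptor genes to 22 (1.76% against 0.209%). The list of developmental transcription factors also took in the coactivator gene Ppargc1a. The B cell and germinal center transcription factors were nearest to 11 (0.882% against 2.35%), and B cell signalling, surface and migration genes to 3 (0.241% against 1.57%). Many of the adhesion and channel genes are long and stand in gene-poor stretches, which the definition favours. No SWI/SNF subunit gene had an isolated peak nearest to it. The nearest gene is a label for position here and need not be the gene a site acts on.

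Of all counts, isolated peaks took 0.464 ± 0.036% in HOMO CC, 0.417 ± 0.023% in HOMO CB, 0.454 ± 0.034% in WT CC and 0.385 ± 0.013% in WT CB libraries (SD, n = 3 each). The CC library lay above the CB library of the same number in all 6 pairs, by 0.0322 to 0.0582 percentage points in HOMO and 0.0440 to 0.0867 in WT. Within each group the share fell as the library total rose: in HOMO CC it was 0.498%, 0.470% and 0.426% for libraries 1, 2 and 3, the order of their totals. The part of depth in the difference was addressed only by adding the library total to the model, below.

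**Figure D2:**
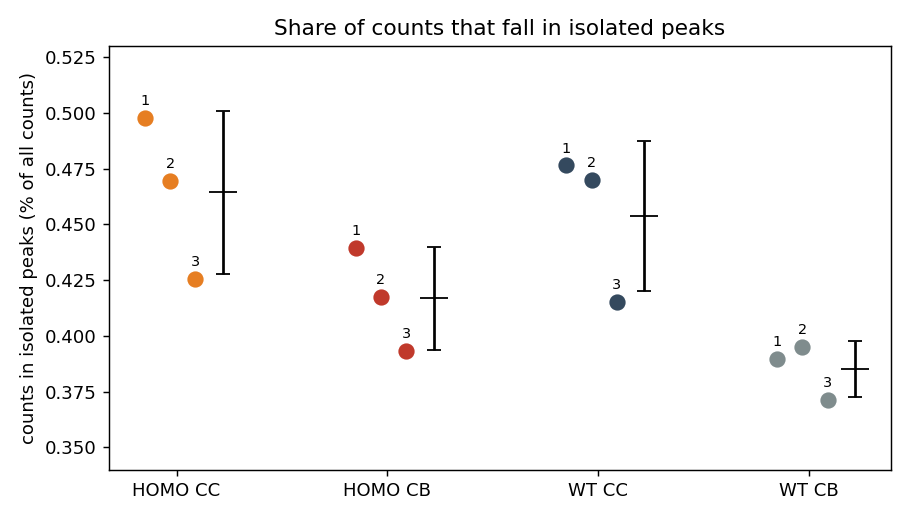
Share of each library's counts that fell in the 1247 isolated peaks, with library numbers beside the points and the mean ± SD (n = 3) to their right; the axis does not start at 0. The WT CC libraries all lie above the WT CB libraries, while HOMO CC and HOMO CB libraries overlap.

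In CB cells, 8 isolated peaks were higher and 15 lower in HOMO than in WT, at an adjusted p under 0.05 in edgeR's quasi-likelihood test over all 68689 peaks. These are 0.642% and 1.20% of the isolated peaks, where 0.779% of all peaks were called higher and 3.85% lower. By level on the log2 CPM scale, the share lower in HOMO was 0.177% of isolated against 0.577% of other distal peaks below 1, 1.58% against 1.72% at 1 to 2, 3.40% against 2.91% at 2 to 3, none of 63 against 3.37% at 3 to 4, and 2 of 29 against 1.86% at 4 or more. The median log2 fold change of the isolated peaks was 0.16, against 0.05 over other distal peaks and 0.01 over all peaks. Of the isolated peaks 67.0% had a positive value, against 56.7% and 51.0%. By level, isolated and other distal medians were 0.22 and 0.11 below 1, and 0.15 and 0.08 at 1 to 2. They were 0.08 and 0.03 at 2 to 3, 0.09 and 0.02 at 3 to 4, and 0.10 and 0.05 at 4 or more. The gaps between these medians were not tested. A site open in fewer cells and a site less open in each cell cannot be told apart in such bulk libraries. The count rests on single libraries. It was 35 without HOMO CB 1, 1 without HOMO CB 2, 7 without HOMO CB 3 and 2 without WT CB 1. The calls over all peaks moved with it. Of all peaks, 0.857% were higher and 4.56% lower without HOMO CB 1, and 0.0510% and 0.445% without HOMO CB 2. These shares were 0.188% and 0.983% without HOMO CB 3, and 0.127% and 0.882% without WT CB 1. None of the 23 calls held under all 12 removals of a library. With offsets fitted to the level, 6 isolated peaks were higher and 20 lower, where 1.09% of all peaks were higher and 3.56% lower.

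The isolated peak with the lowest adjusted p in CB cells was that at the start inside Frmd4a, a gene for a scaffold protein of cell polarity, at chr2:4559363-4559863. It had 2.88, 1.17 and 1.48 CPM in HOMO CB, against 6.05, 5.04 and 4.84 CPM in WT CB libraries. All HOMO CB libraries lay below all WT CB libraries (log2 fold change -1.73 ± 0.30 SE, edgeR adjusted p = 0.00339). In CC cells the same peak had 3.99, 2.16 and 2.30 CPM in HOMO and 8.54, 6.20 and 5.64 CPM in WT libraries, again without overlap (-1.38 ± 0.28, adjusted p = 0.0150). Without HOMO CB 2 the adjusted p in CB was 0.0556.

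Others called lower in HOMO CB had levels of a few CPM. The peak inside Ppargc1a, a gene for a coactivator of mitochondrial biogenesis, had 0.393, 0.325 and 0.605 CPM in HOMO CB and 2.59, 1.83 and 1.92 CPM in WT CB libraries (-2.20 ± 0.45, adjusted p = 0.00923). The peak 13.7 kb from Mepe, a gene for a bone matrix protein, had 1.70, 1.14 and 1.35 CPM in HOMO CB and 4.15, 3.32 and 3.05 CPM in WT CB libraries (-1.40 ± 0.27, adjusted p = 0.00619). No HOMO CB library reached a WT CB library at either site. A peak 63.2 kb from the zinc finger gene Zfp947 had 3.54, 3.23 and 3.16 CPM in HOMO CB, against 6.78, 7.10 and 6.53 CPM in WT CB libraries (-1.05 ± 0.21, adjusted p = 0.00719). The peak at the start of the non-coding gene Smkr-ps, whose window is shown above, was the second most open of the lower set, with 10.5, 14.2 and 13.7 CPM in HOMO CB and 19.7, 17.9 and 23.6 CPM in WT CB libraries (-0.65 ± 0.14, adjusted p = 0.0131). The most open was the Zfp451 start, with 22.4, 25.4 and 25 CPM in HOMO CB and 35.2, 27.7 and 32.5 CPM in WT CB libraries (-0.39 ± 0.11, adjusted p = 0.0438), again with no overlap. The remaining lower peaks lay inside or near Crb1, 3110040M04Rik, Gm50595, Focad, Scfd2, Prok2, Pabpc2 and Hectd2 and at the 4732419C18Rik start near Rab4a, with log2 fold changes between -1.51 and -0.86.

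Of the peaks called higher in HOMO CB, that inside Supt3, a gene for a subunit of the SAGA histone acetyltransferase complex, had the lowest adjusted p. It had 4.72, 5.94 and 4.82 CPM in HOMO CB and 2.29, 2.63 and 2.12 CPM in WT CB libraries (1.18 ± 0.27, adjusted p = 0.0150). The peak 139 kb from Scgb2a2, a secretoglobin gene, had 11.9, 11 and 10.3 CPM in HOMO CB, against 6.88, 6.41 and 6.73 CPM in WT CB libraries (0.71 ± 0.17, adjusted p = 0.0186). The HOMO libraries lay above the WT libraries at both. The peak 224 kb from Cblb, a gene for a ubiquitin ligase that restrains lymphocyte signalling, had 4.06, 3.74 and 3.03 CPM in HOMO CB and 1.61, 1.72 and 1.99 CPM in WT CB libraries (0.98 ± 0.24, adjusted p = 0.0213). Others lay inside Il1rap, the co-receptor of interleukin 1 (1.07 ± 0.29), inside Nol4 (1.03 ± 0.28), 64.3 kb from Camkmt (1.58 ± 0.43) and at the Golga7b start (1.01 ± 0.28).

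In CC cells, 7 isolated peaks were higher and 9 lower in HOMO than in WT. These are 0.561% and 0.722% of the isolated peaks, where 0.578% of all peaks were higher and 2.17% lower. Of other distal peaks 0.703% were higher and 1.14% lower, and of gene-end peaks 0.204% and 5.66%. Below 1 on the log2 CPM scale, 0.177% of isolated and 0.417% of other distal peaks were lower in HOMO. The shares were 0.905% and 0.907% at 1 to 2, and 2.04% and 1.38% at 2 to 3. They were 1.59% and 1.85% at 3 to 4, and none and 0.801% at 4 or more. The median log2 fold change was 0.06 over other distal peaks and 0.02 over all peaks. For the isolated peaks it was 0.07. That median was 0.013 without WT CC 3, 0.033 without HOMO CC 1 and 0.12 without HOMO CC 3. Leaving out HOMO CC 1 gave 31 calls, and leaving out HOMO CC 2 or HOMO CC 3 gave 0. Leaving out WT CC 1 or WT CC 2 gave 1 or 5. Few of all peaks were called then either. They were 0.00874% higher and 0.0160% lower without HOMO CC 2, and 0.0611% and 0.258% without HOMO CC 3. Without WT CC 1 they were 0.0713% and 0.409%, and without WT CC 2 0.173% and 0.702%. Without HOMO CC 1 the shares rose to 1.31% and 3.66%. At an unadjusted p under 0.05, edgeR gave 119 and 138 isolated peaks without HOMO CC 2 and HOMO CC 3. None of the 16 calls held under every removal of a library.

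The CC call with the lowest adjusted p was the Golga7b start, in a gene related to an accessory protein of palmitoylation, at chr19:42255736-42256236. It had 4.44, 6.96 and 7.0 CPM in HOMO CC and 1.47, 1.93 and 2.69 CPM in WT CC libraries (1.59 ± 0.29, adjusted p = 0.00900). In CB cells it had 5.89, 6.27 and 6.05 CPM in HOMO and 2.88, 1.37 and 4.18 CPM in WT libraries, with adjusted p = 0.0412. HOMO lay above WT throughout. Higher also were peaks near Scgb2a2 (0.63 ± 0.16), inside Ibtk, named for an inhibitor of Bruton's tyrosine kinase (1.26 ± 0.28), inside Tbc1d22a (1.14 ± 0.26) and Elapor2 (1.08 ± 0.29), and 250 kb from 2610001J05Rik (0.51 ± 0.13).

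Of the lower set in CC cells, the peak 10.2 kb from Siah3, of the Siah ubiquitin ligase family, was the most open. It had 5.62, 5.66 and 4.49 CPM in HOMO CC, against 12.7, 11.9 and 9.55 CPM in WT CC libraries (-1.12 ± 0.25, adjusted p = 0.0214). In CB cells HOMO CB 1, at 10.3 CPM, lay among the WT CB libraries at 11.2, 10.9 and 8.69 CPM, while HOMO CB 2 and HOMO CB 3 had 4.86 and 4.33 CPM, and the peak missed the threshold (adjusted p = 0.0772). The peak 107 kb from Pabpc2, on chromosome 18, had 3.25, 2.49 and 1.95 CPM in HOMO CC and 6.52, 4.69 and 5.70 CPM in WT CC libraries (-1.22 ± 0.23, adjusted p = 0.0109). That 83.5 kb from Hgf, the gene of a growth factor, had 3.55, 2.16 and 2.46 CPM in HOMO CC and 7.30, 5.90 and 3.78 CPM in WT CC libraries (-1.11 ± 0.27, adjusted p = 0.0310). No HOMO library reached a WT library of CC at these 3 sites. The rest lay inside Frmd4a, Padi4 and Sox6 and near Mepe, Sp4 and Esm1, with log2 fold changes between -1.71 and -1.01.

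The genotype effects in CB and CC cells, which share no libraries, ran the same way at every call. All 8 higher and 15 lower CB calls had the same sign in CC, and all 7 higher and 9 lower CC calls had the same sign in CB. The calls shared were 3 higher, among them Scgb2a2 and Golga7b (37.5% of the CB calls and 42.9% of the CC calls), and 3 lower, at Frmd4a, Mepe and Pabpc2 (20% and 33.3%). Over all 1247 peaks the effects had a Pearson correlation of 0.56 and a Spearman correlation of 0.48. Numbers 1, 2 and 3 were shared by the CB and CC libraries of a genotype. Same-numbered ones deviated together (correlation 0.21 to 0.52), so the effects in CB and CC cannot be taken as independent. Sign agreement, overlap and correlation were not computed over all peaks, so they cannot be set against the whole table. Tested directly, no isolated peak differed in genotype effect between CC and CB (edgeR, 0 calls, with 0.0% of all peaks called); 29 had an unadjusted p under 0.05, and DESeq2 and limma also gave 0 calls.

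**Figure D3:**
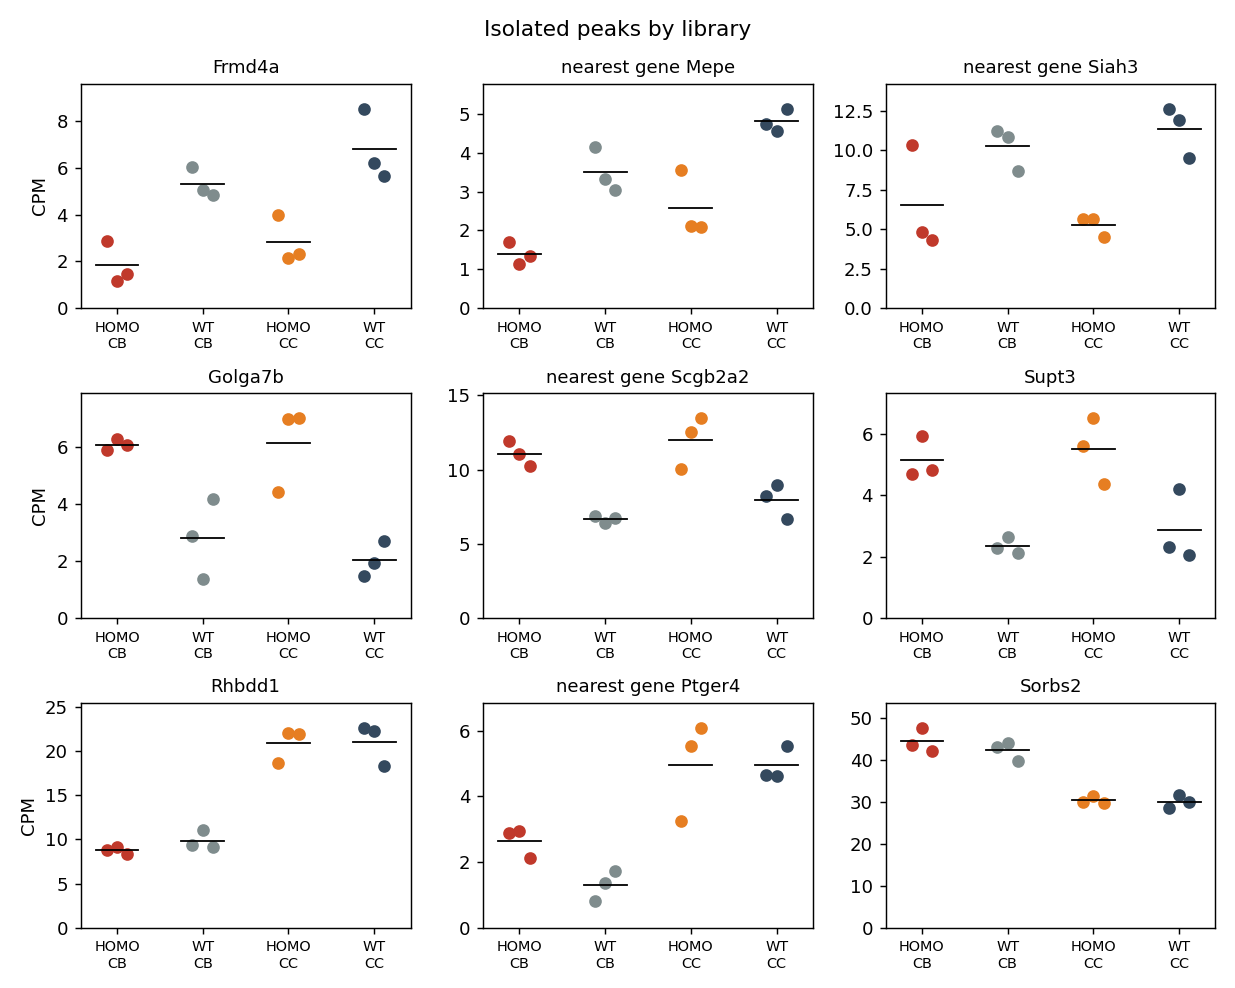
CPM of 9 isolated peaks in each of the 12 libraries, with the 3 libraries of a group as points and their mean as a line. Frmd4a, Mepe and Siah3 are lower in HOMO, Golga7b, Scgb2a2 and Supt3 higher in HOMO, Rhbdd1 and Ptger4 higher in CC and Sorbs2 lower in CC; HOMO CB 1 stands apart at Siah3.

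By gene group, few genotype calls fell in any list. Zinc finger genes were nearest to 18 isolated peaks, of which 2 were lower in HOMO CB, at Zfp451 and Zfp947, and none higher, where 3.85% of all peaks were called lower and 0.779% higher in CB; their median log2 fold change was -0.28 in CB and -0.23 in CC, against 0.01 and 0.02 over all peaks. Of the 36 in the list of developmental transcription factors, 1 was lower in CB and 1 lower in CC. The CB call was at Ppargc1a, a coactivator gene that the list took in. The CC call was at Sox6, with 1.63, 0.521 and 0.608 CPM in HOMO CC and 3.18, 2.29 and 1.92 CPM in WT CC libraries. None of the 11 at B cell factors, the 30 at neuronal adhesion genes, the 39 at channels or the 22 at odour receptor genes was called in either cell population; at the shares over all peaks, lists of this size would hold few calls or none. The B cell factor with the most open isolated peak was Tcf12, an E protein gene, with 11.2 to 17.3 CPM in HOMO CB and 9.49 to 13.3 CPM in the WT CB libraries, and with 10 to 14.8 CPM in HOMO CC and 8.89 to 12.3 CPM in the WT CC libraries. Within 6 Mb of Pbrm1 on chromosome 14 stood 4 isolated peaks, near or in Slmap, Tmem273, A630023A22Rik and Rgr, and none was called.

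Far more isolated peaks differed between CC and CB cells than between genotypes, and most were higher in CC. In HOMO mice 90 were higher and 20 lower in CC than in CB, 7.22% and 1.60% of the isolated peaks, where 4.78% of all peaks were higher and 2.44% lower. In WT mice 92 were higher and 13 lower, 7.38% and 1.04%, where 3.35% of all peaks were higher and 2.08% lower. The median log2 fold change was 0.17 in HOMO and 0.26 in WT, against -0.00 and -0.03 over all peaks. With the CC and CB libraries of 1 number and genotype taken as pairs, more were called. In HOMO 204 were higher and 67 lower, and in WT 223 were higher and 55 lower. Of all peaks, this pairing called 12.5% higher and 9.68% lower in HOMO, and 10.4% and 11.8% in WT. The count of 110 in HOMO fell to 59 without HOMO CB 2, 41 without HOMO CB 3 and 32 without HOMO CC 2. In that order, 2.98%, 2.25% and 1.945% of all peaks were higher and 1.35%, 1.32% and 0.993% lower. The count of 105 in WT fell to 36 without WT CB 1 and 64 without WT CB 2. It was 52 without WT CC 1 and 39 without WT CC 2. Of all peaks, 1.21%, 1.94%, 1.96% and 1.42% were higher in these 4 fits of WT. The shares lower were 0.686%, 1.05%, 0.983% and 0.863%.

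Much of the lean toward CC was shared by weak peaks of every class. Below 1 on the log2 CPM scale, the median log2 fold change in HOMO was 0.22 for isolated, 0.24 for other distal and 0.21 for gene-end peaks, and in WT it was 0.39, 0.31 and 0.32. The share of peaks called higher did not differ one way between isolated and other distal peaks. In HOMO CC it was 6.01% of the 566 isolated peaks against 6.98% of other distal peaks below 1, 8.14% of 442 against 7.09% at 1 to 2, 11.6% of 147 against 7.58% at 2 to 3, 4.76% of 63 against 5.53% at 3 to 4, and none of 29 against 2.55% at 4 or more. In WT CC it was, in the same order of levels, 5.48% against 6.22%, 8.60% against 5.78%, 13.6% against 5.12%, 4.76% against 3.28%, and none against 1.15%. These gaps were not tested. Offsets fitted to the level in each library reduced the lean. With them 62 isolated peaks were higher and 35 lower in HOMO CC, and 46 higher and 30 lower in WT CC. Of all peaks, 3.95% were then higher and 2.57% lower in HOMO CC, and 2.34% and 1.70% in WT CC. The medians of the isolated peaks were 0.02 and 0.06. With the library total as a covariate the medians were 0.15 and 0.25.

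**Figure D4:**
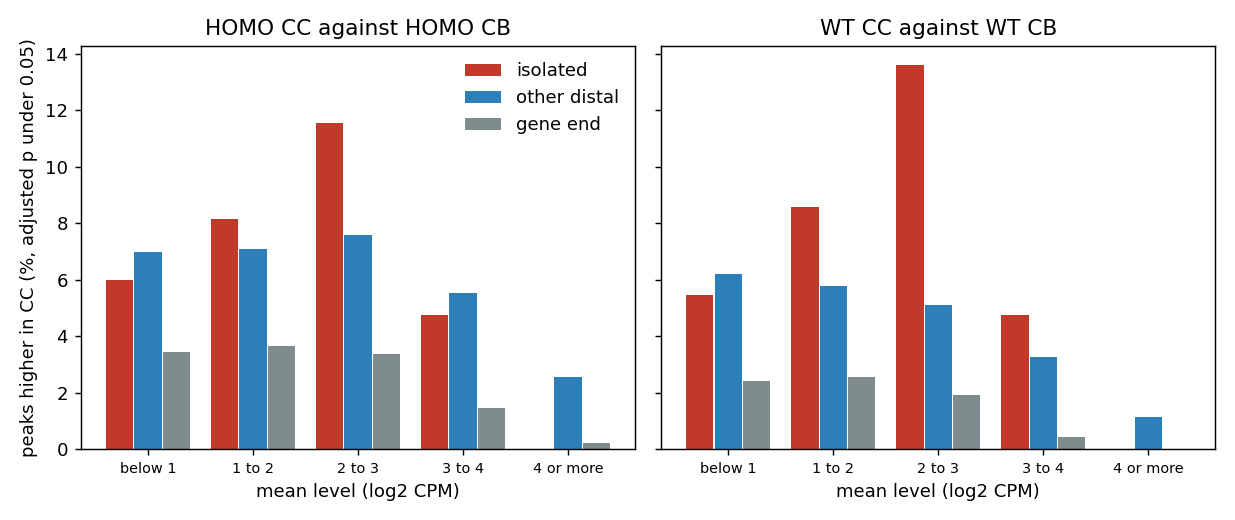
Percentage of isolated, other distal and gene-end peaks called higher in CC than in CB, by mean level, in HOMO (left) and WT (right). Between 2 and 3 on the log2 CPM scale the isolated bars reach 11.6% in HOMO and 13.6% in WT, while below 1 they lie at 6.01% and 5.48%, under the other distal bars; the highest bin holds 29 isolated peaks, none called higher.

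The CC call with the lowest adjusted p in both genotypes lay inside Rhbdd1, a rhomboid protease gene, at chr1:82389246-82389746. It had 18.6, 22 and 21.9 CPM in HOMO CC and 8.78, 9.19 and 8.41 CPM in HOMO CB libraries, and 22.6, 22.3 and 18.3 CPM in WT CC and 9.32, 11.1 and 9.12 CPM in WT CB libraries. All CC libraries lay above all CB libraries, with log2 fold changes of 1.26 ± 0.14 in HOMO (adjusted p = 2.7e-05) and 1.11 ± 0.14 in WT (adjusted p = 0.00021), and both calls held under every removal of a library. A peak 106 kb from Ahr, the aryl hydrocarbon receptor gene, had 6.51, 7.48 and 7.26 CPM in HOMO CC and 1.83, 3.25 and 2.80 CPM in HOMO CB libraries, and 11.1, 10.1 and 6.90 CPM in WT CC and 3.76, 4.01 and 4.48 CPM in WT CB libraries (1.36 ± 0.22 and 1.17 ± 0.22). It too was higher in every CC library than in any CB library.

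The peak 364 kb from Ptger4, the gene of a prostaglandin E2 receptor, had 3.25, 5.55 and 6.08 CPM in HOMO CC and 2.88, 2.96 and 2.13 CPM in HOMO CB libraries, and 4.66, 4.63 and 5.54 CPM in WT CC and 0.829, 1.37 and 1.72 CPM in WT CB libraries. Its log2 fold change was 0.99 ± 0.26 in HOMO (adjusted p = 0.0232) and 1.90 ± 0.29 in WT (adjusted p = 0.00075), and the groups did not overlap in either. Also higher in CC in both genotypes were peaks inside Rsu1 (1.94 ± 0.24 in HOMO, 1.36 ± 0.23 in WT), F13a1, the gene of a clotting factor subunit (1.76 ± 0.27, 1.58 ± 0.29), and Eefsec, the selenocysteine elongation factor gene (1.10 ± 0.21, 1.31 ± 0.22). Others stood near Cavin4 (2.07 ± 0.24, 1.32 ± 0.24), Pmch, the melanin-concentrating hormone gene (2.07 ± 0.29, 1.83 ± 0.29), Epyc, a cartilage proteoglycan gene (1.87 ± 0.34, 2.42 ± 0.37), and Rasa1, a Ras GTPase-activating protein gene (1.10 ± 0.28, 1.76 ± 0.30).

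Fewer peaks were lower in CC. The most open was the start inside Sorbs2, a cytoskeletal adaptor gene, with 29.9, 31.4 and 29.7 CPM in HOMO CC and 43.6, 47.5 and 42.2 CPM in HOMO CB libraries, and 28.6, 31.6 and 29.9 CPM in WT CC and 43.1, 44.0 and 39.7 CPM in WT CB libraries. Every CC library lay below every CB library (-0.55 ± 0.09 in HOMO, adjusted p = 0.00111; -0.49 ± 0.09 in WT, adjusted p = 0.00449), and both calls held under every removal of a library. The peak inside Iftap had 1.48, 1.79 and 1.77 CPM in HOMO CC and 7.07, 3.88 and 4.53 CPM in HOMO CB libraries, and 1.79, 1.14 and 1.23 CPM in WT CC and 4.63, 3.78 and 3.08 CPM in WT CB libraries (-1.51 ± 0.28 and -1.49 ± 0.29). Also lower in both were peaks near Sptssa, of the enzyme that starts sphingolipid synthesis (-1.41 ± 0.30 in HOMO, -1.49 ± 0.32 in WT), near Hdac4, a histone deacetylase gene (-0.56 ± 0.14, -0.67 ± 0.15), 609 kb from the neuronal gene Cntn5 (-0.67 ± 0.19, -1.23 ± 0.19), and inside Lrrtm4, a gene of a synaptic adhesion protein (-1.21 ± 0.32, -1.43 ± 0.34). Of the 30 peaks nearest to neuronal adhesion genes, 3 were lower and 1 higher in HOMO CC and 2 lower and none higher in WT CC, where 2.44% of all peaks were lower and 4.78% higher in HOMO CC and 2.08% lower and 3.35% higher in WT CC. The group had medians of -0.12 in both, against the positive medians of the isolated peaks as a whole.

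The CC calls of the 2 genotypes, which again share no libraries, had 54 higher peaks in common, 60.0% of the HOMO set and 58.7% of the WT set, and 7 lower, 35.0% and 53.8%. All 110 HOMO calls and all 105 WT calls had the same sign in the other genotype. Over the 1247 peaks the CC against CB values of HOMO and WT had a Pearson correlation of 0.73 and a Spearman correlation of 0.65. Overlap, sign agreement and correlation were not computed over all peaks here either. The peaks higher in HOMO CC had a median log2 fold change of 1.36 in HOMO and 1.20 in WT, and those higher in WT CC had 1.12 in HOMO and 1.41 in WT, and each set's own value is raised by its choice.

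**Figure D5:**
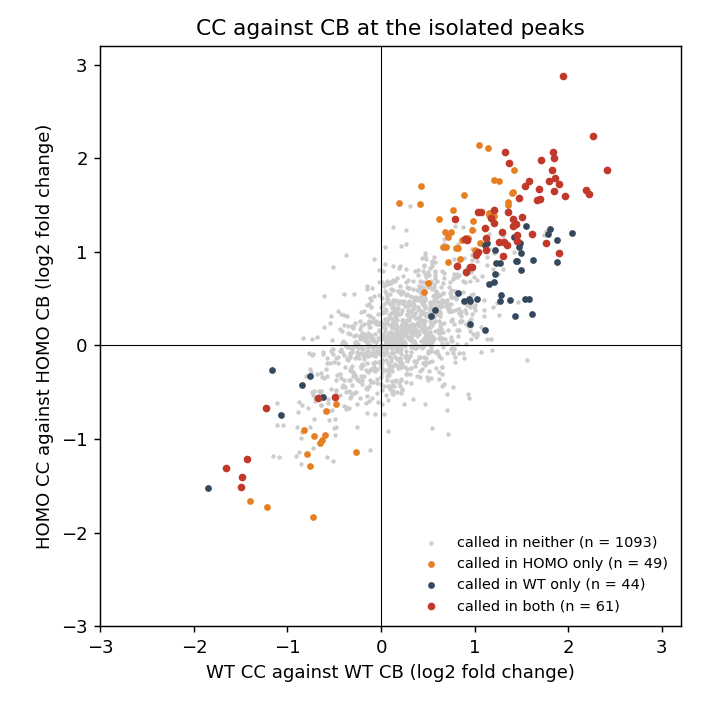
Log2 fold change of CC against CB at each of the 1247 isolated peaks, in HOMO (vertical) and WT (horizontal), coloured by the genotypes in which the peak was called. The 61 peaks called in both lie at the upper right and the lower left.

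The 176 peaks with no neighbour within 200 kb had median log2 fold changes of 0.17 for HOMO against WT in CB and 0.20 for CC against CB in WT, and the 536 with a neighbour at 50 to 75 kb had 0.12 and 0.25. Peaks inside gene spans and intergenic ones had 0.30 and 0.22 for CC against CB in WT. The 58 at start windows stood apart in level, with a median of 4.10 CPM against 2.05 CPM for the other 1189, and in their CC against CB median, 0.03 against 0.17 in HOMO and -0.00 against 0.27 in WT. Of the 58, 1 was higher and 4 were lower in HOMO CB (1.72% and 6.90%), against 0.779% and 3.85% of all peaks. These differences were not tested.

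The isolated peaks with the nearest neighbours lay by Zfp976, Fam172a and Ap3b1, with neighbours at 50174, 50273 and 50371 bp and mean levels of 1.14, 1.52 and 2.51 CPM. Just outside, peaks by Serpine3, Txlnb and Galnt16 had neighbours at 49971, 49967 and 49952 bp and levels of 1.32, 3.73 and 1.90 CPM. At the gene-end limit, those just inside lay 1014, 1017 and 1048 bp from the ends of Ktn1, Cyp4f37 and Svil, at 11.9, 5.11 and 3.91 CPM, and those just outside lay 987, 983 and 980 bp from the ends of 0610010F05Rik, Lipo3 and Zbtb8os, at 3.38, 4.95 and 2.47 CPM. In all, 1066 isolated peaks (85.5%) were called in none of the comparisons. The matching share of all peaks was not computed. For genotype, 1.84% of isolated peaks were called in CB and 1.28% in CC, against 4.63% and 2.75% of all peaks. For CC against CB it was 8.82% in HOMO and 8.42% in WT, against 7.22% and 5.43%.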

How the data were processed

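Omni-ATAC libraries were made from spleen, per the labels' protocols. The submitters' processing notes name FastQC, BWA, deepTools, R 4.2.1 and the build mm10; no source used here says how peaks were called or counted. The authors deposited raw read counts for 68689 peaks of 501 bp in 12 libraries, and all peaks passed the filter on low counts. Gene positions and start windows came from RefSeq on GRCm38. The isolated peaks, gene lists and comparisons were chosen with earlier results of these data known. Levels are CPM scaled by TMM factors.

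Counts of all peaks were fitted in edgeR 4.0.16 (R 4.3.3) with TMM, filterByExpr and a robust quasi-likelihood F test over 4 groups, and p-values were adjusted by Benjamini and Hochberg over all peaks; a call is an adjusted p under 0.05. SE is the absolute log2 fold change divided by the square root of F. Precision was lower at isolated peaks: the median SE was 0.32 for isolated and 0.20 for all peaks in CB. Alternatives were other normalizations, filters, tools (DESeq2 1.42.0, limma 3.58.1), blocks, covariates, member definitions and left-out libraries. Same-numbered CC and CB libraries of a genotype deviated together in all 6 pairs (correlation 0.21 to 0.52, against -0.34 to 0.12 for different numbers). They were taken as paired only in the alternative with a replicate block, and the main fit did not pair them. Same-numbered HOMO and WT libraries had correlations of -0.01 to 0.40, against -0.30 to 0.18 for different numbers, and these ranges overlapped. Named peaks were the up to 8 with the lowest p per direction and comparison, 1 per nearest gene and with groups apart, the 10 highest, the 5 farthest, the leading peaks of each list, those at the limits of the definition and those within 6 Mb of Pbrm1. A few peaks that this rule names are not reported here.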

Additional observations from a re-analysis of the deposited data

How the results depend on the processing

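The medians kept their sign under every alternative run, and no named call reversed. With offsets fitted to the level the median was 0.10 for HOMO against WT in CB, and for CC against CB it was 0.020 in HOMO and 0.058 in WT; leaving out 1 library moved these medians between 0.14 and 0.21, 0.11 and 0.24, and 0.24 and 0.33, and that of HOMO against WT in CC between 0.013 and 0.12. The counts of called isolated peaks moved more. Leaving out 1 library gave 1 to 35 calls for HOMO against WT in CB and 0 to 31 in CC. For CC against CB it gave 32 to 122 in HOMO and 36 to 119 in WT. Counts thus rose as well as fell, as did the shares of all peaks called at the removals given above, and the cause was not tested. In the order genotype in CB, genotype in CC, CC against CB in HOMO and CC against CB in WT, a 25 kb neighbour distance gave 70, 39, 270 and 269 calls among 3288 peaks, and a 100 kb distance 9, 6, 32 and 34 among 472. An adjusted p under 0.01 left 4, 1, 39 and 33. The library total as a covariate gave 76, 50, 171 and 185, and the replicate block 81, 65, 271 and 278. Both alternatives also called more of all peaks in each comparison. In CB the covariate called 3.24% of all peaks higher and 8.59% lower, and the block 4.03% and 9.21%. Whether the numbers pair HOMO with WT libraries was not settled, as correlations of same-numbered and different-numbered libraries overlapped. The first 2 counts of the replicate block are therefore given here only. Limma gave 54 and 37 in CB and CC, and DESeq2 25 in CC. Without both WT libraries numbered 2 the counts were 11, 3 and 16 for genotype in CB, genotype in CC and CC against CB in WT. Of all peaks, 0.370% were then higher and 2.05% lower in the first, and 0.118% and 0.355% in the second. In the third they were 0.485% and 0.282%. Without both HOMO libraries numbered 1, chosen after seeing the data, CB had 43 and CC 41. Of all peaks, 1.34% were then higher and 5.80% lower in CB, and 1.81% and 4.66% in CC. Of the 98 named calls, 30 held under all 12 removals of 1 library, 13 of 31 in HOMO and 17 of 28 in WT for CC against CB, and none of the 23 in CB or 16 in CC between genotypes. At 16 to 80 median counts a library, small differences at most isolated peaks were not detectable.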
